A study of Mus musculus with 3 samples.

Results

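The genes of TGF-beta, BMP and Nodal signalling were followed in mouse SCLC (small cell lung cancer) cells with and without a Kdm1a knock-out. They were taken by gene symbol: the TGF-beta, activin, inhibin, Nodal, BMP and GDF ligands, their receptors, the Smads, the latent TGF-beta binding proteins, the secreted antagonists, Ski and Skil, and the Id genes. The rule took 72 of the 24523 genes in the table. It reads symbols alone, but the members were chosen with earlier results of these data known. Kdm1a encodes LSD1, a histone lysine demethylase that works in corepressor complexes. Most tumours of this kind express neuroendocrine genes.

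All libraries came from SCLC line 3, infected with a lentiviral CRISPR vector and kept in puromycin for at least 1 week. The control (n = 1 library) received the Crispr-V2 vector, with no guide named. The knock-out (n = 2 libraries) received the vector with guide Kdm1a-sg1 or guide Kdm1a-sg2, and each guide was sequenced once. The labels do not say whether cells were cloned after selection. Total counts ranged from 43424212 to 51066078 per library. Kdm1a itself had 11468, 3950 and 5716 counts in the control, sg1 and sg2 libraries, an order kept for all such triplets here, and its log2 fold change of -1.40 (SE 0.404) missed the threshold (edgeR adjusted p = 0.0537).

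The spread was estimated from the guides alone, the single control library was taken to vary as they do, and the p-values measure only the spread between these libraries. The libraries are bulk RNA, so a change in the share of cells of a kind and a change in RNA per cell cannot be told apart. Markers of other states moved with the comparison. All 12 neuroendocrine markers examined had counts in every library, and their summed level was 2096, 1486 and 1077 RPKM. Of these, Chga, Neurod1 and Syt1 were lower and Calca, at 4249, 21923 and 11723 counts, was higher. The 11 mesenchymal and fibroblast markers summed to 3.43, 339 and 605 RPKM, and 7 of the 10 tested were higher, where 6.33% of all genes tested were. Of the 7, 3 had 0 counts in the control, and Col1a1 and Col3a1 had few. These were kept for the test through the knock-out alone, so the count only describes. Of the 11 markers, Lum stayed at 0 counts in all libraries, and Col1a2 had 0, 15 and 6. The 8 immune markers summed to 4.77, 9.92 and 6.21 RPKM, and 0 of the 2 tested passed in edgeR, DESeq2 or limma-voom, with 0 at an unadjusted p under 0.05. Among them Cd68 had 196, 414 and 309 counts, Cd79a 14, 36 and 8, and Ptprc 0, 0 and 1. The 6 alveolar and club cell markers summed to 2.41, 50.03 and 14.5 RPKM, with Sftpb (4, 1166 and 910 counts) and Sftpa1 (0, 141 and 66) higher and Cyp2f2 (37, 0 and 0) lower. Sftpc, at 30, 1061 and 109 counts, gave 29.3 RPKM of the sg1 sum and did not pass (edgeR adjusted p = 0.0536). Scgb1a1 and Ager did not pass either. The 4 endothelial markers summed to 0.12, 2.02 and 4.49 RPKM, and Kdr (9, 433 and 1229 counts) was higher. Kdr alone gave 1.76 RPKM with sg1 and 4.36 with sg2. The others had few counts: Pecam1 7, 21 and 1, Tek 7, 23 and 16, and Cdh5 0, 1 and 11. Pecam1 and Tek did not pass, and Cdh5 was not tested. The part of these markers in the results was not tested.

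Ligands of this family are secreted dimers. A type II receptor kinase binds the ligand and switches on a type I receptor kinase, which phosphorylates receptor-regulated Smads: Smad2 and Smad3 for TGF-beta, activin and Nodal, and Smad1, Smad5 and Smad9 for most BMPs. These join Smad4 in the nucleus. TGF-beta is made in a latent form that latent TGF-beta binding proteins hold in the matrix, and follistatin, noggin, chordin, gremlin and cerberus bind ligands outside the cell. Id genes are classical BMP targets whose products block basic helix-loop-helix factors. In epithelial cells the TGF-beta branch is known as an inducer of epithelial-mesenchymal transition.

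Promoters of 6 called members, all among the 7 with the largest ratios to the control, are shown first because they belong to the genes the results turn on. Each is 300 bases (250 before the start site and 50 after it), 5′ to 3′ on the gene's strand, from RefSeq on GRCm38.p6. Capitals mark the Smad box, CAGAC or its reverse complement GTCTG. Cer1, whose RNA was abundant in the control and nearly gone with both guides, lies at chr4:82885102-82885401 on the minus strand. Tgfb1 (chr7:25686752-25687051, plus strand), Tgfbr2 (chr9:116175314-116175613, minus), Inhba (chr13:16011601-16011900, plus), Ltbp2 (chr12:84876442-84876741, minus) and Grem1 (chr2:113758599-113758898, minus) are the reverse case, at or near 0 counts in the control.
Cer1: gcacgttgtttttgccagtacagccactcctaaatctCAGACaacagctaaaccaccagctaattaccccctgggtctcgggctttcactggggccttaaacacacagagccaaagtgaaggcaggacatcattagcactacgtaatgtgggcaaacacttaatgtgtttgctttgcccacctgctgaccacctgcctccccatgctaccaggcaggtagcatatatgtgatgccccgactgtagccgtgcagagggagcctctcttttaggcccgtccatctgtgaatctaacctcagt
Tgfb1: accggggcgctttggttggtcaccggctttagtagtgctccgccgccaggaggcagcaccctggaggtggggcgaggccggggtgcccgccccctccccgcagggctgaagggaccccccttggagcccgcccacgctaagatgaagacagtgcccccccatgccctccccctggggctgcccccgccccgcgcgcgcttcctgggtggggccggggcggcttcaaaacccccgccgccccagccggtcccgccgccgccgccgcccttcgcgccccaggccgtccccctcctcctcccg
Tgfbr2: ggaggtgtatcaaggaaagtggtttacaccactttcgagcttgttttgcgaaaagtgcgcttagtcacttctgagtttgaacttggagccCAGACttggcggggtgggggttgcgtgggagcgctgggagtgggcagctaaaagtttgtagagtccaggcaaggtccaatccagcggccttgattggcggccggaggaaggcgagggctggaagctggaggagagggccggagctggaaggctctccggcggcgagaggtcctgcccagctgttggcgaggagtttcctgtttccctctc
Inhba: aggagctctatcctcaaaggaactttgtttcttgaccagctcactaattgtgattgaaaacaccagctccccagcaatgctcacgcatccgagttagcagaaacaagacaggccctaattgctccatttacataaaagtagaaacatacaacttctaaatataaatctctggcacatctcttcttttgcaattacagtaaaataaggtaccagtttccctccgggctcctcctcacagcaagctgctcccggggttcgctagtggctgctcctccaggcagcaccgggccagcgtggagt
Ltbp2: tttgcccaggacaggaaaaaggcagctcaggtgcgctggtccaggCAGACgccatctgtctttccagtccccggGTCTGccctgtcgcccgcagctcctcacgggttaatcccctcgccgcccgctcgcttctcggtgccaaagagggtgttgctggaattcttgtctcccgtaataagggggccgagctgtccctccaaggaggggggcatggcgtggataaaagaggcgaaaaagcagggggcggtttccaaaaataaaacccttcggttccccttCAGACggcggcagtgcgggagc
Grem1: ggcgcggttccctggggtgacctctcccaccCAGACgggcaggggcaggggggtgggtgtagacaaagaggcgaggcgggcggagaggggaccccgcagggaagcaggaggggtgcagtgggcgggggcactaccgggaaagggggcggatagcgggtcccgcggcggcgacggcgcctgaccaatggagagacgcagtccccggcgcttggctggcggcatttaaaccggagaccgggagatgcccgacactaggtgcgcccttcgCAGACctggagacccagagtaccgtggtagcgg

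The printed windows differ in base composition. The Tgfb1 window held 30 CpG dinucleotides, Grem1 28 and Ltbp2 20, against 15 in Tgfbr2, 7 in Inhba and 6 in Cer1. The median over 32851 mouse promoter windows was 7. A Smad box was found 3 times in Ltbp2, 2 times in Grem1, once each in Tgfbr2 and Cer1, and was not among the letters of the Tgfb1 or Inhba window. Over all promoters 49.6% held at least 1. Of the 18 windows belonging to 14 members that were higher in the knock-out, 9 held it, close to that share. The Foxh1-type motif TGTNNATT (or AATNNACA), present in 12.2% of all promoters, was in none of the printed windows. Inhba held a TATAAA box (either strand), as did 13.6% of promoters.

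Across the family, 60 of the 72 members had enough counts to be tested. Comparing both guides with the control, 16 of these were higher and 2 lower by edgeR's quasi-likelihood test at an adjusted p under 0.05, adjusted over all genes. Over all 15936 genes tested, 6.33% were called higher and 1.70% lower, against 26.7% and 3.33% of the tested members. DESeq2's Wald test called 19 members higher and 3 lower, where it called 8.84% and 2.52% of all genes, and limma-voom called 12 and 2, where it called 3.22% and 1.24%. Limma-trend on log2(RPKM + 1) kept Cer1 alone of the 18 calls. The filter keeps a gene that is high in any library. Of the tested members 7 had 0 counts in the control and passed through the knock-out alone. Others, the called members Gdf15 and Fst among them, passed likewise, with control counts too low for the filter. The shares of tested members thus describe and do not support. The members were also chosen with earlier results of these data known, so shares and medians taken with or without the filter only describe. Without that filter, 27 of the 72 members had a mean CPM (counts scaled to a common library size) at least 2-fold above the control and 15 at least 2-fold below it, 37.5% and 20.8%, where 12.2% and 7.90% of all 24523 genes did. The median log2 ratio was 0.14 over the 72 members and 0.00 over all genes, with levels under 3 control counts set to that floor. Genes at 0 counts in all libraries have a ratio of 0 by construction. They make up 7 of the 72 members and 5785 of all 24523 genes. They lower the 2-fold shares and pull the medians toward 0, and more so over all genes. Over the 60 tested members the median fitted log2 fold change was 0.53, against 0.06 over all genes tested. These medians hold genes that passed the filter through the knock-out alone. At a mean count of at least 50 the medians were 0.17 and 0.05. With limma-trend on log2(RPKM + 1) they were 0.13 and 0.03. The authors' deposited tables list 19 members among their up genes and 11 among their down genes, lists that hold 7.47% and 8.78% of all genes. All 18 members called here are among these. The lists come from the same 3 libraries, so the overlap gives no support of its own.

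**Figure D1:**
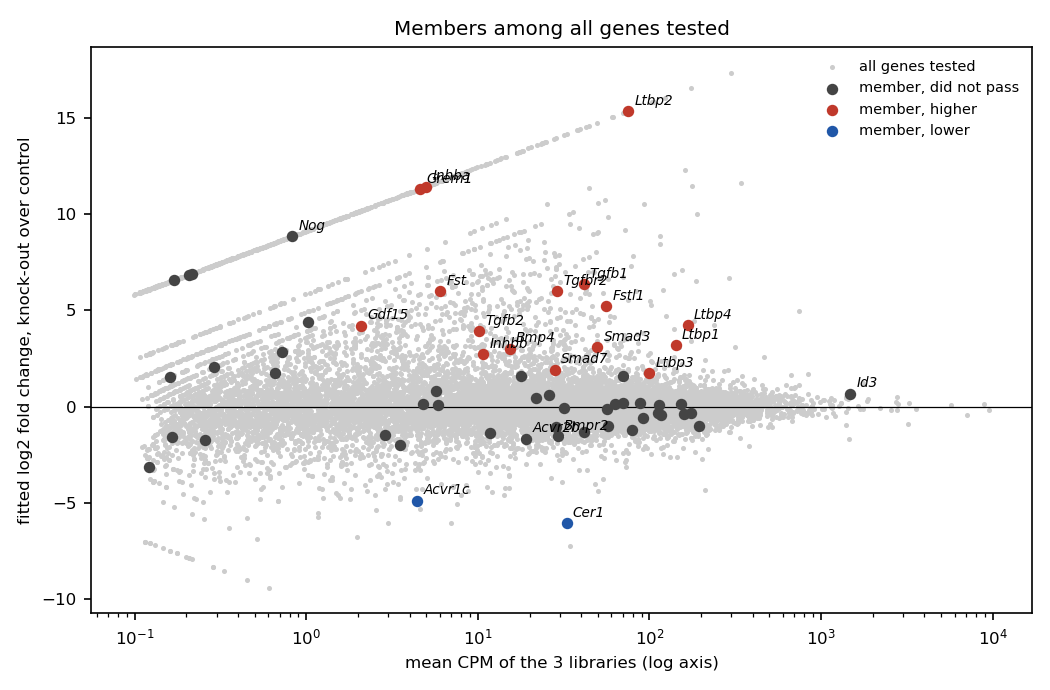
Fitted log2 fold change (knock-out over control, vertical) against the mean CPM of the 3 libraries (log axis) for all genes tested (grey) and the tested members (coloured by call). Members called higher lie at intermediate mean levels, between Gdf15 and Ltbp4, and none at the lowest or highest levels was called higher. Cer1 and Acvr1c lie alone among the lower ones, and the upper straight line holds genes with 0 control counts, whose fitted value depends on the prior count and is no measured fold.

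The TGF-beta ligands changed in amount and in kind. Tgfb3, the main TGF-beta ligand of the control, differed less and did not pass, while Tgfb1 and Tgfb2 went from near silence to a clear signal with both guides. Tgfb1, the ligand most often tied to fibrosis and mesenchymal conversion, had 32, 2041 and 3949 counts. The control stood at 0.738 CPM and the knock-out at 61.6 ± 23.2 CPM (SD, n = 2), 83.6-fold higher (log2 6.38, SE 0.689, adjusted p = 0.000112 with edgeR). Tgfb2 had 42, 506 and 917 counts and was 15.2-fold higher (log2 3.92, SE 0.712, adjusted p = 0.00362 with edgeR). In both genes each guide lay far above the control, and sg2 above sg1. Tgfb3 had 841, 1394 and 1404 counts, a log2 fold change of 0.60 (SE 0.472) that did not pass (edgeR adjusted p = 0.609).

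Per gene length, the make-up of the 3 ligands turned over. Tgfb3 gave 91.1%, 27.6% and 16.6% of their summed RPKM (reads per kilobase of gene, scaled to library size). Tgfb1 gave 5.61%, 65.3% and 75.6%. The sum itself was 6.22, 33.1 and 48.3 RPKM.

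All 4 latent TGF-beta binding proteins were higher. Ltbp1, Ltbp3 and Ltbp4 tether latent TGF-beta to the matrix, whereas Ltbp2 is a related microfibril protein that does not bind it. Ltbp2 (chromosome 12, 84783212 to 84876558 in GRCm38) had 0, 5068 and 5716 counts. A count of 0 in the control allows up to 3 counts, or 0.0692 CPM. The knock-out mean of 113 ± 0.529 CPM lay 1629-fold above that limit (edgeR adjusted p = 1.64e-05). The long non-coding RNA D030025P21Rik overlaps it and moved with it, at 0, 98 and 102 counts. Ltbp4 had 563, 7384 and 16349 counts and was 18.8-fold higher (log2 4.23, SE 0.599, edgeR adjusted p = 0.000655). Ltbp1 had 964, 4814 and 15090 counts, 9.11-fold higher on average (log2 3.19, SE 0.646, edgeR adjusted p = 0.00743), with the sg2 level 2.80 times the sg1 level (95% counting interval 2.71 to 2.89). Ltbp3 had the smallest difference, 1664, 5715 and 6741 counts, 3.39-fold (log2 1.76, SE 0.452, edgeR adjusted p = 0.0301). Another gene overlaps Ltbp3, and with the strand setting unknown reads in the overlap cannot be assigned for certain, as for Bmp4 with Gm15217 and Acvr1c with Gm13544. Intervals for ratios of counts are exact but leave out every error except that of counting, and copies made by PCR are not told from separate molecules. The call of Ltbp1 was also lost when a gene length trend was removed, with adjusted p from 9.79e-07 to 0.131 over 10 alternatives.

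Ltbp3 led the group in the control with 59.4% of the summed RPKM, and Ltbp4 led it with both guides, at 34.9% and 42.1%. Bmp1, which despite its name is an astacin protease that trims procollagens and LTBPs, had 1291, 3770 and 4840 counts. Its 3.01-fold higher mean (log2 1.59, SE 0.458) narrowly missed the threshold (edgeR adjusted p = 0.0532). Both guides exceeded the control by more than counting error, with ratios of 2.81 (2.63 to 2.99) and 3.22 (3.02 to 3.42).

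**Figure D2:**
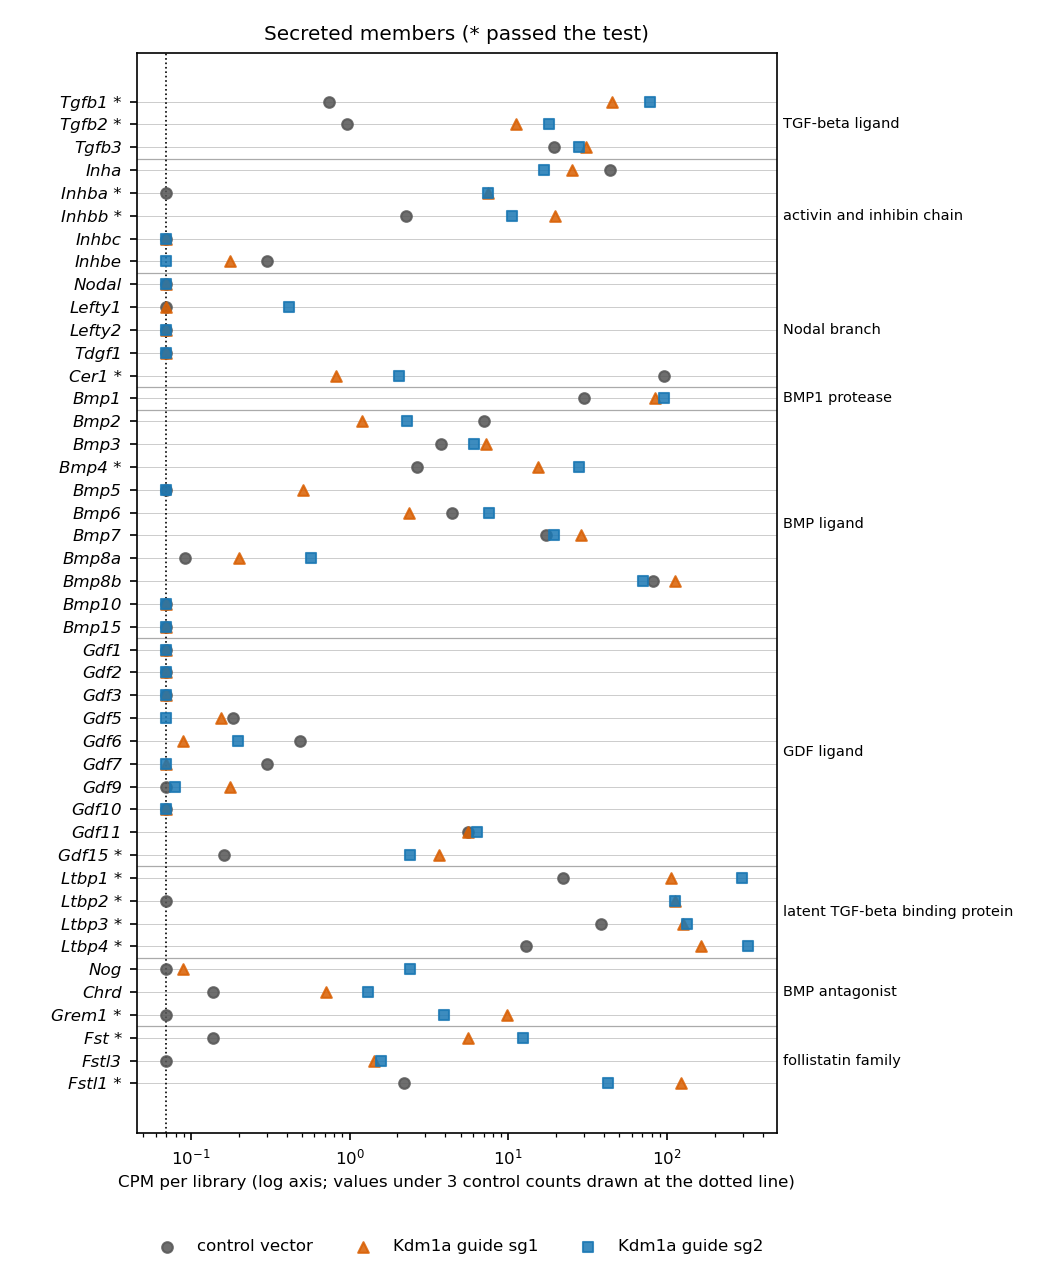
CPM of secreted members in each library on a log axis, grouped by role, with an asterisk for members that passed the edgeR test. Tgfb1, Tgfb2, Inhba, all LTBPs, Grem1, Fst and Fstl1 lie to the right of the control with both guides, Cer1 lies far to the left, and 7 members sit at 0 counts in every library.

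Activin chains were higher and the inhibin alpha chain was not. Activins are dimers of beta chains, and pairing of a beta chain with the alpha chain gives inhibin, which opposes them. Inhba, the beta A chain, had 0, 336 and 379 counts, with a knock-out mean of 7.47 ± 0.0356 CPM, 108-fold above the 3-count limit (edgeR adjusted p = 0.000331). Inhbb, the beta B chain, had 98, 883 and 531 counts and was 6.65-fold higher (log2 2.73, SE 0.671, edgeR adjusted p = 0.0237). Both guides lay above the control for both genes, as they did for 7077 of all 24523 genes. Of all genes, 5785 had 0 counts in every library and could lie neither above nor below. The Inhbb call was lost under 5 of 10 alternatives, with adjusted p from 0.000364 to 0.204. Inha, the alpha chain, had 1892, 1132 and 853 counts, a log2 fold change of -1.06 (SE 0.459, edgeR adjusted p = 0.236). Inhbe had 13, 8 and 1 counts (log2 -1.60, adjusted p = 0.734 with edgeR), and Inhbc had 2, 1 and 3 and was not tested. Per length, Inha stood at 29.5 RPKM and Inhbb at 0.526 RPKM in the control. With sg1 they stood at 17.2 and 4.6 RPKM, with sg2 at 11.3 and 2.42 RPKM, so Inha remained the most abundant chain in all 3 libraries.

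Of the Nodal branch, Cer1 was the member with a substantial signal, and it fell the furthest of the family. Cer1 encodes cerberus, a secreted antagonist that binds Nodal, BMPs and, in frogs, Wnt. It had 4151, 37 and 103 counts (GRCm38 chromosome 4, 82881751 to 82885151). From 95.7 CPM it dropped to 1.43 ± 0.86 CPM, 67.0-fold lower (log2 -6.06, SE 0.571, edgeR adjusted p = 4.38e-05). Per length it ranked 1379th among all genes in the control, at 54.4 RPKM, and 13634th and 12183rd with the guides. Cer1 passed under all 10 alternatives, with adjusted p up to 0.0463.

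The ligand and its other partners were barely detected. Nodal had 3, 0 and 0 counts, the Nodal antagonists Lefty1 and Lefty2 had 3, 0 and 21 and 0, 2 and 0, and the co-receptor Tdgf1 had 0 in all libraries. Lefty1 and Lefty2 are close copies of each other, and the treatment of reads shared between them is not given. The ligand that cerberus is best known to block was thus near the detection limit, a CPM of 0.0692 in the control, both where Cer1 was high and where it was low.

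Of the 8 BMP ligands tested, 1 was higher and 0 were lower by edgeR, with 1 of each at an unadjusted p under 0.05, and neither DESeq2 nor limma-voom called any lower. Bmp4, a ligand of lung and mesoderm development, was higher, with 116, 696 and 1409 counts, 8.09-fold (log2 3.02, SE 0.642, edgeR adjusted p = 0.0102). Bmp2, its closest relative, had 303, 54 and 116 counts, a lower mean that did not pass (log2 -2.0, SE 0.722, edgeR adjusted p = 0.133). Counting error alone does not cover the Bmp2 differences, with ratios to the control of 0.171 (0.126 to 0.229) for sg1 and 0.328 (0.263 to 0.408) for sg2. Per length, Bmp2 stood above Bmp4 in the control, 2.75 against 1.33 RPKM. The order was the reverse with sg1 (0.476 against 7.74 RPKM) and with sg2 (0.894 against 13.7 RPKM).

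The most abundant BMP ligand gene in every library was Bmp8b, at 27.4, 38.4 and 23.5 RPKM (log2 0.17, SE 0.451, edgeR adjusted p = 0.910). Bmp8a, its tandem neighbour and near copy, had 4, 9 and 29 counts, and reads shared between the copies could not be told apart. Bmp7 had 754, 1302 and 978 counts and Bmp3 163, 327 and 305, and neither passed (edgeR adjusted p = 0.729 and 0.613). Bmp6 lay below the control with sg1 and above it with sg2, at 192, 107 and 381 counts. Bmp5 had 23 counts with sg1 and 0 elsewhere, and Bmp10 and Bmp15 had 0 in all libraries. Bmp8b, Bmp8a and Bmp6 overlap other genes of the table.

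Among the GDFs, Gdf15, a stress-induced cytokine that signals through the receptor Gfral, was the member called. It had 7, 166 and 122 counts, 18.9-fold higher (log2 4.21, SE 1.09, edgeR adjusted p = 0.0321), at a low knock-out level of 3.04 ± 0.895 CPM. This call was lost under 5 of 10 alternatives, with adjusted p from 0.00156 to 0.136. Gdf11, a ligand that signals through activin type II receptors, had 243, 250 and 320 counts (log2 0.08, SE 0.626, adjusted p = 0.975 with edgeR). Gdf6 had 21, 4 and 10 counts and Gdf7 had 13, 1 and 2, and neither passed. Gdf5 had 8, 7 and 2 counts and Gdf9 1, 8 and 4, too few to test. Gdf1, Gdf2, Gdf3 and Gdf10 were at 0 in all libraries, which allows up to 3 counts or 0.0692 CPM in the control. Gdf1 shares its whole interval with Cers1, which was also at 0 in all libraries. Whether reads in such overlaps were left uncounted is not given.

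Of the secreted antagonists other than Cer1, the BMP antagonist Grem1 and the follistatin family members Fst and Fstl1 were higher. Grem1, gremlin, which sequesters BMP2, BMP4 and BMP7, had 0, 444 and 200 counts. Its mean of 6.90 ± 4.16 CPM in the knock-out lay 99.7-fold above the 3-count limit (edgeR adjusted p = 0.000786). Fst, follistatin, which binds activins, had 6, 251 and 628 counts and was 65.0-fold higher (log2 5.99, SE 0.988, edgeR adjusted p = 0.00181). Limma-voom did not call Fst, whose adjusted p ran from 6.76e-09 to 0.119 over 10 alternatives. Its relative Fstl3 had 3, 64 and 80 counts, a pooled ratio of 21.8 (95% counting interval 7.30 to 107) that missed the threshold (edgeR adjusted p = 0.0737).

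Fstl1, a secreted glycoprotein of mesenchyme that shares the follistatin domain, had 95, 5554 and 2152 counts. It was 37.8-fold higher (log2 5.24, SE 0.758, edgeR adjusted p = 0.00075) and reached 34.1 RPKM with sg1. Noggin, a BMP trap, split the guides: Nog had 0, 4 and 121 counts (edgeR adjusted p = 0.0963). Chrd, chordin, had 6, 32 and 66 counts (log2 2.84, SE 1.37, edgeR adjusted p = 0.303).

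The receptors showed 1 gain and 1 loss that passed. Tgfbr2, the type II receptor without which cells do not bind TGF-beta productively, had 29, 2011 and 2100 counts (GRCm38 chromosome 9, 116087695 to 116175363). Its 43.0 ± 2.14 CPM in the knock-out, against 0.669 CPM, was 64.4-fold higher (log2 6.0, SE 0.645, edgeR adjusted p = 0.000109), and the guides were nearly alike. Acvr1c, the type I receptor ALK7 that serves Nodal, activin B and some GDFs, had 540, 12 and 29 counts. The knock-out mean of 0.42 ± 0.217 CPM, against 12.5 CPM, was 29.7-fold lower (log2 -4.88, SE 0.737, edgeR adjusted p = 0.000969).

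The other type II receptors had lower values that did not pass. Acvr2b had 1526, 625 and 430 counts (log2 -1.65, SE 0.492, edgeR adjusted p = 0.0618), Bmpr2 had 2252, 1155 and 500 (log2 -1.55, SE 0.538, edgeR adjusted p = 0.116) and Acvr2a had 3767, 2246 and 1802 (log2 -1.02, SE 0.427, edgeR adjusted p = 0.209). In all 3 genes both guides lay below the control by more than counting error, and sg2 below sg1. Of all 24523 genes, 7006 had both guides below the control, by any amount, and 5785 had 0 counts in every library and could not. Per length, Tgfbr2 was 0.275%, 27.8% and 38.1% of the summed type II RPKM, and the activin receptors Acvr2a and Acvr2b together with Bmpr2 made up the rest. The summed type II level was 50.3, 33.5 and 22.3 RPKM.

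The type I receptors other than Acvr1c did not pass. Bmpr1a, the BMP receptor ALK3, was the most abundant in the control at 24.0 RPKM (log2 -0.33, SE 0.443, edgeR adjusted p = 0.799). Tgfbr1, the ALK5 partner of Tgfbr2, was already at 20.8 RPKM in the control, with 5165, 4651 and 2676 counts (log2 -0.61, SE 0.467, edgeR adjusted p = 0.592). In the control the type I and type II TGF-beta receptors thus stood at 20.8 and 0.138 RPKM, and in the knock-out at 18.2 and 9.32 with sg1 and 9.15 and 8.5 with sg2. Acvr1 and Acvr1b, the ALK2 and ALK4 receptors, had log2 fold changes of -0.15 and -0.06 (edgeR adjusted p = 0.922 and 0.977). Bmpr1b had 218, 26 and 155 counts, with sg2 at 5.32 times the sg1 level (3.50 to 8.40), and did not pass (edgeR adjusted p = 0.461). Acvrl1, an endothelial receptor, had 28 counts with sg1 and 0 elsewhere. Of the co-receptors, Tgfbr3 (betaglycan) had 869, 496 and 217 counts and Eng (endoglin) 11, 26 and 58, with edgeR adjusted p of 0.228 and 0.578.

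**Figure D3:**
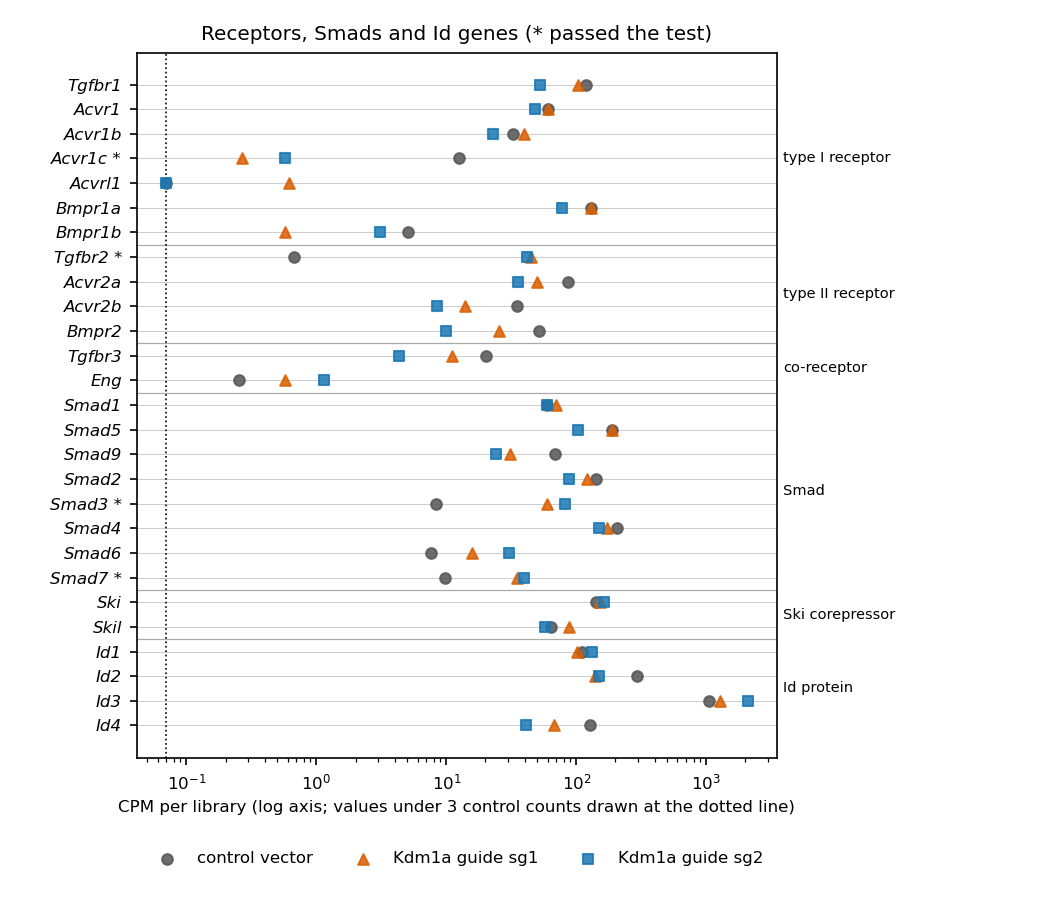
CPM of receptors, Smads, Ski corepressors and Id genes in each library on a log axis, with an asterisk for members that passed the edgeR test. Tgfbr2, Smad3 and Smad7 lie to the right of the control with both guides, Acvr1c lies to the left, and Id3 has the highest level of all members in each library.

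Among the Smads, Smad3 and the inhibitory Smad7 were higher, and the others did not pass. Smad3, which binds DNA directly and carries much of the TGF-beta response, had 360, 2685 and 4102 counts. The rise was 8.47-fold, to 70.3 ± 15.3 CPM from 8.30 CPM (log2 3.08, SE 0.522, edgeR adjusted p = 0.00224). Smad2, the sister that needs partners to bind DNA in its main splice form, had 6090, 5415 and 4428 counts (log2 -0.44, SE 0.420, edgeR adjusted p = 0.693). Smad3 thus went from 9.60% of the summed Smad2 and Smad3 RPKM in the control to 47.1% with sg1 and 62.5% with sg2. Smad7, a feedback inhibitor of the receptors, had 424, 1579 and 1997 counts, 3.81-fold higher (log2 1.93, SE 0.503, edgeR adjusted p = 0.0325). Its call was lost under 4 of 10 alternatives, with adjusted p up to 0.186. Smad6, the inhibitor of the BMP branch, had 328, 714 and 1535 counts and missed the threshold (log2 1.61, SE 0.584, edgeR adjusted p = 0.135).

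The common partner Smad4 was the most abundant Smad in each library per length, at 60.4, 51.4 and 44.2 RPKM (log2 -0.34, SE 0.406, edgeR adjusted p = 0.766). Of the BMP Smads, Smad1 and Smad5 had log2 fold changes of 0.13 and -0.36 (edgeR adjusted p = 0.935 and 0.786). Smad9, the least abundant of them, had 2995, 1391 and 1215 counts (log2 -1.33, SE 0.427, edgeR adjusted p = 0.0844). The corepressors Ski and Skil, which bind Smads and hold their targets off, differed little, with log2 fold changes of 0.16 and 0.20 (SE 0.413 and 0.449, edgeR adjusted p = 0.910 and 0.890).

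The Id genes were expressed at high levels in every library, and 0 of the 4 passed in edgeR, DESeq2 or limma-voom, with 2 at an unadjusted p under 0.05 in edgeR. Id3 was the most abundant member of the family, with 45864, 57872 and 105614 counts, and ranked 18th, 15th and 8th among all genes by RPKM. Its log2 fold change was 0.67 (SE 0.411, edgeR adjusted p = 0.457), at 1099, 1347 and 2147 RPKM. Id1 differed least, at 120, 111 and 141 RPKM (log2 0.07, edgeR adjusted p = 0.964). Id2 had 227, 109.8 and 115 RPKM (log2 -1.01, SE 0.396, edgeR adjusted p = 0.174). Id4 had 76.2, 41.0 and 24.2 RPKM (log2 -1.23, SE 0.439, edgeR adjusted p = 0.128). Id2 and Id4 lay below the control with both guides, and Id3 above it, as 7006 and 7077 of all 24523 genes did. The 24523 include 5785 genes at 0 counts in every library, which could do neither.

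**Figure D4:**
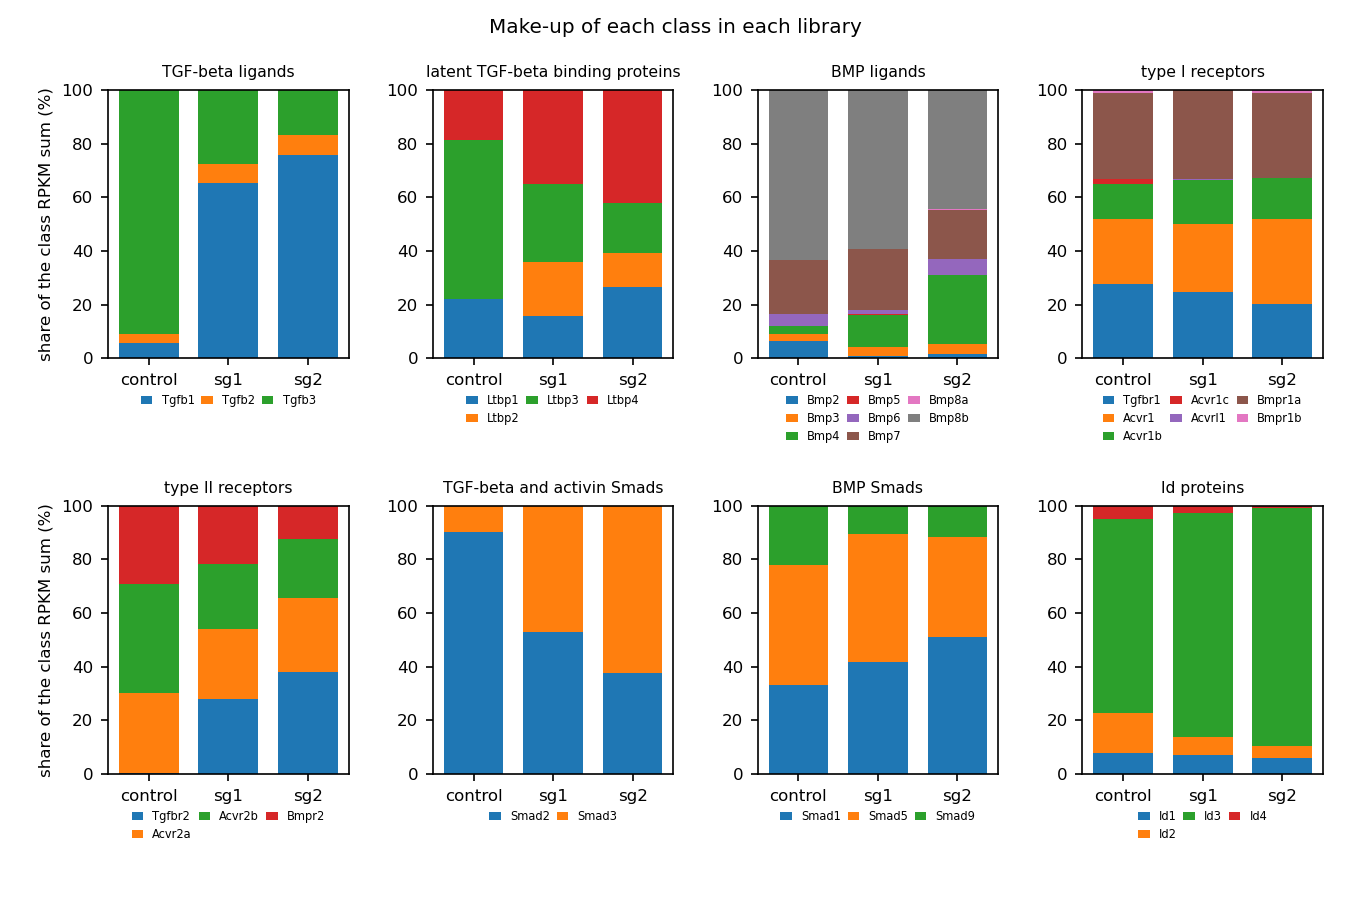
Share of the summed RPKM that each gene gave within its class (vertical axis, percent) in the control, sg1 and sg2 libraries. Tgfb1 replaces Tgfb3 as the main TGF-beta ligand, Tgfbr2 appears among the type II receptors, Smad3 comes up beside Smad2, and Id3 leads the Id genes in each library.

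The guides were compared within the family. Among the 36 members whose mean over the guides was at least 10 CPM, 1 was at least 2-fold higher with sg2 (Ltbp1) and 2 with sg1 (Fstl1 and Bmpr2), where 3.57% and 5.11% of the 10279 genes at that level were. Fstl1 with sg2 had 0.346 times the sg1 level (0.329 to 0.364), and Bmpr2 had 0.386 times (0.347 to 0.429). With 1 library per guide these differences cannot be split into guide and library.

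Other genes of the pathway that the symbol rule does not take were read from the same fit. Of 49 regulators and 20 reported target genes, 63 were tested and 18 were higher. By edgeR 0 were lower, with 1 at an unadjusted p under 0.05, and DESeq2's Wald test called 1 lower. The share called higher was 28.6% of those tested, against 6.33% of all genes. Of the 18 called, 4 had 0 counts in the control and passed the filter through the knock-out alone. Others of the 18, such as Bgn, Eomes, Rgmb and Col1a1, passed likewise, with control counts too low for the filter. The lists were also chosen with results of these data known, so the share describes and does not support. Acta2, Col1a1 and Dcn of these lists also stand among the mesenchymal markers.

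Among the regulators, Htra1, a secreted protease that cleaves family ligands and matrix proteins, had 0, 876 and 1669 counts, with a knock-out mean 379-fold above the 3-count limit. Bmper, a BMP-binding protein, had 0, 1117 and 539, with a knock-out mean 256-fold above that limit. The proteoglycan gene Bgn had 8, 333 and 3874 counts (log2 7.81, SE 1.41), and Rgmb, a BMP co-receptor, had 4, 173 and 575 (log2 6.32, SE 1.12). Eomes, a T-box factor downstream of Nodal and activin in the embryo, had 3, 183 and 413 counts, a pooled ratio of 90.0 (30.7 to 438), and Pmepa1, a feedback inhibitor induced by TGF-beta, had 320, 2362 and 5553 (log2 3.46, SE 0.602). Their edgeR adjusted p lay between 5.11e-05 and 0.00354. Itgav, an integrin chain that helps release latent TGF-beta, and Chrdl1, a BMP antagonist, also passed. Limma-voom did not call Bgn, Eomes, Rgmb or Chrdl1, whose highest adjusted p over 10 alternatives were 0.26, 0.146, 0.182 and 0.199. Bambi, Smurf1 and Smurf2, which restrain the receptors, had log2 fold changes of 0.06, 0.19 and -0.49 and did not pass (edgeR adjusted p = 0.975, 0.891 and 0.644).

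Of the 18 tested targets, 10 were higher, where 6.33% of all genes tested were. Acta2, Ctgf and Col1a1 were among those that passed the filter through the knock-out alone, so the count only describes. Acta2, smooth muscle actin, had 0, 6774 and 18874 counts, and Ctgf, a matricellular factor, 0, 525 and 2070. Col1a1 had 4, 10119 and 2752 counts, Runx2 30, 1380 and 1943, and Snai1 17, 720 and 449. Fn1, Atoh8, Thbs1 and Junb were also called, and the Junb call was lost under 6 of 10 alternatives (adjusted p from 0.0049 to 0.089). Targets that did not pass included Cdkn1a (log2 0.14, edgeR adjusted p = 0.924), Cdkn2b (144, 97 and 16 counts) and Tgfbi (26, 52 and 36 counts). Tagln (123, 174 and 1076 counts), Snai2 (224, 1291 and 700) and Hey1 (424, 1368 and 1175) had higher values that did not pass. Their edgeR adjusted p were 0.205, 0.0690 and 0.129. Among BMP-responsive targets, Atoh8 had 77, 1284 and 2459 counts and was higher, and Msx1 had 58, 107 and 236 and Dlx5 471, 247 and 760 and did not pass.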

How the data were processed

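RNA-seq was done on 3 libraries. The tools named are HTSeq 0.6.1, TopHat2 2.0.12 and Bowtie2 2.2.3, with mm10 as the build, per the submitters' processing notes; their settings and strand mode are not stated there. The authors deposited raw read counts and RPKM for 24523 genes. The RPKM columns are named as such per the file headers.

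Members were matched by symbol, and members and lists were chosen with earlier results of these data known. The counts as deposited were tested with edgeR 4.0.16 (R 4.3.3): TMM factors, filterByExpr on the group, the quasi-likelihood F test, and Benjamini-Hochberg adjustment over 15936 genes (8587 not tested). There was 1 residual degree of freedom, moderated with 11.5 prior degrees of freedom. The SE is the log2 fold change over the square root of F. CPM use effective library sizes, and folds are ratios of mean CPM. A control at 0 was set to 3 counts (0.0692 CPM). Ratios of counts carry exact 95% intervals. Alternatives used DESeq2 1.42.0 and limma 3.58.1. Scripts were tested on simulated data. RefSeq positions on GRCm38, which mm10 is built from, were found for 72 members through Entrez identifiers. Of these, 16 overlap another gene of the table, and the called ones among them were Bmp4, Ltbp2, Ltbp3 and Acvr1c. Without a known strand setting their reads are uncertain. Members with an adjusted p under 0.05 were described in full and the others by their counts. Of the listed regulators and targets, up to 6 each with the largest log2 fold change among those called were named. Bambi, Smurf1, Smurf2, Itgav, Chrdl1, Trim33, Fstl5 and the targets named beside the 6 were chosen after their values were seen. A few genes that these rules would name are not reported here.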

Additional observations from a re-analysis of the deposited data

How the results depend on the processing

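Of the calls among the members, 16 higher and 2 lower, DESeq2 size factors and upper-quartile factors gave 16 and 2 as well, where 6.44% and 1.85%, and 5.66% and 1.29%, of all genes were called. Limma-trend on log2(RPKM + 1) gave 0 higher and 1 lower member (Cer1), 2 higher genes in the wider pathway list, and 27 higher (0.169%) and 4 lower (0.0251%) among all genes, and the cause was not tested. EdgeR called 1008 and 271 of all genes. At an unadjusted p under 0.05 it had 21 higher and 11 lower members, and 1920 higher and 992 lower of all 15936 genes. With a pseudocount of 0.1 instead, 14 members were higher and 2 lower, and all genes gave 606 (3.80%) and 73 (0.458%). Limma-voom gave 12 and 2 members, and 513 higher among all genes. Without a filter on low counts 19 members were higher and 5 lower (7.37% and 2.73% of all genes, 511 of them lower), and the added lower ones were Acvr2b, Bmpr2 and Smad9. A mean count of at least 50 gave 15 and 2 members and 180 lower genes (5.89% and 1.34%), and library totals alone 13 and 2 members and 178 lower genes (5.0% and 1.12%). Removing the gene length trend, chosen after seeing the data, gave 612 (3.84%) and 109 (0.684%) among all genes and 13 and 2 members. In the wider pathway list, 1 gene was lower with DESeq2 size factors, with no filter and with DESeq2's Wald test, against 0. The count of members at least 2-fold higher ranged from 25 to 26 and at least 2-fold lower from 10 to 15 when either guide was left out, against 27 and 15, and the 10 is the count without sg2. Leaving out a guide leaves 1 library against 1 and gives no test. The share over all genes without a guide is not given, so these counts are not set against a background. No paired analysis was possible because the control has 1 library, so the groups share fewer than 2 replicate numbers. None of the members or listed genes changed direction in any call. Depth limits what can be said of 12 members with too few counts to test.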

Other observations

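Several members gave a signal with 1 guide alone. Acvrl1 had 28 counts and Bmp5 23 with sg1 and 0 in both other libraries, and Lefty1 had 21 counts with sg2, 0 with sg1 and 3 in the control. Nog had 121 counts with sg2 and 4 with sg1. In the wider pathway list, Fstl5 had 156, 193 and 9 counts (control, sg1 and sg2). Trim33, a Smad4-binding ubiquitin ligase and chromatin factor, had 8956, 3689 and 3833 counts, alike with both guides, and narrowly missed the threshold (log2 -1.39, SE 0.397, edgeR adjusted p = 0.0512).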
